A study of Mus musculus with 20 samples.

Results

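T follicular regulatory (TFR) cells of mouse peripheral lymph nodes (pLN) were set against regulatory T (Treg) cells that lay in the same nodes but showed little or no PD1, a comparison that asks what separates the follicular from the other Treg cells of an immune reaction. The arrays were chosen by their labels as TFR or Treg cells of pLN after immunisation, which gave 6 of the 20 arrays of the series, 3 for each cell type. Each array measured RNA of 1 sorted cell pool from 8 to 15 mice of both sexes, aged 8 to 14 weeks, on a single-colour Agilent whole-genome chip. Slides 1 and 2 held the pools of day 12 (d12) and slide 3 those of day 25 (d25), and every slide carried 1 array each of naive T, T follicular helper (TFH), Treg and TFR cells. All mice of the pLN pools, naive and TFH cells included, were of the B6.Cg-Foxp3<tm1Mal> strain, in which green fluorescent protein reports Foxp3, and had been immunised with keyhole limpet hemocyanin in alum. TFR cells were gated as Foxp3 reporter-positive, PD1-high cells with or without the GL7 epitope. Treg cells were gated as reporter-positive cells with low or no PD1 and no GL7, so PD1 and Foxp3 take part in the definition of the groups and are no results here.

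Treg cells restrain other immune cells and depend on the transcription factor Foxp3. TFR cells arise when Treg cells take up part of the programme of TFH cells: they express Bcl6 and the chemokine receptor CXCR5, enter B-cell follicles and limit the germinal centre reaction, in which TFH cells help B cells to mature. T cells in general leave a node by sensing sphingosine-1-phosphate through S1PR1 and enter it with the help of CCR7, and KLF2 keeps S1PR1 active in resting cells.

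Normalised intensity, with a 75th percentile of 1500 and a floor of 20 on every array, is given below in the order of slides 1, 2 and 3. A gene was called where the limma fit over the 12 pLN arrays, with slide as a block, gave an adjusted p under 0.05 and a log2 difference of at least 1 in size. Between 43.0% and 53.6% of the probes were detected on the 6 arrays. TFR cells of slide 2 had a median local background of 268, above the other arrays. The scanner software's check of negative controls was in range on slide 1 and out of range on every array of slides 2 and 3. Net negative-control signal was 26.0 and 26.9 in the compared pools of slide 1 and 121 to 318 in those of slides 2 and 3. The labels give 50 ng of RNA for slide 1 and 40 ng for slides 2 and 3. Each cell type occupied the same position on every slide, so array position and cell type cannot be told apart, and the labels tie each d25 value to slide 3. Foxp3 (probe at chrX:7172301-7172360, mm9) read 29926, 22048 and 27484 in TFR cells and 35129, 29850 and 25436 in Treg cells. In TFH cells of the same slides it read 27.0 to 94.8, far below both reporter-positive fractions. PD1, encoded by Pdcd1, read 27456 to 51386 in TFR cells and 3016 to 3987 in Treg cells. The 7 CD4 T-cell marker genes on the array were detected in all 6 pools, and the labelled cell types thus showed their defining genes.

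The transcriptomes of TFR and Treg cells differed widely, with more genes higher than lower in TFR cells. Of 18698 probes tested, 2489 were called (13.3%), of which 1680 were higher (8.98%) and 809 lower (4.33%) in TFR cells. With 1 probe a gene, 1292 of 12316 genes were higher (10.5%) and 541 lower (4.39%), 1833 in all (14.9%), while the median log2 difference over all genes was −0.04. The 10.5% and 4.39% are the background to each list count of TFR against Treg cells that follows. All 3 TFR arrays lay above all 3 Treg arrays for 24.1% of the genes and below them for 22.4%, which is the background to each statement on overlap that follows. The arrays were centred by the normalisation, so a common shift of all genes could not be read. In these bulk samples, fewer cells of a type and less RNA per cell cannot be told apart.

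Among the genes with the largest positive difference, several were at or near the floor in Treg cells. Fam81a read 1202, 1173 and 1116 in TFR cells and 30.7, 20.2 and 59.4 in Treg cells, where no array detected it, and was at least 15.8-fold higher (limma, adjusted p = 1.3e-05). Stfa3, a stefin of the cysteine protease inhibitor family, read 393, 815 and 1658 against 27.4, 21.8 and 20 and was at least 11.4-fold higher. Cd70, the ligand of CD27, read 1128, 1240 and 1436 in TFR cells and 68.4, 36.8 and 53.5 in Treg cells (log2 difference 4.62 ± 0.26, SE). For these 3 genes the groups lay far apart on every slide. Vegfc, a growth factor for lymphatic vessels, had a log2 difference of 4.66 ± 0.30, with 878 to 1180 in TFR cells and 26.8 to 76.3 in Treg cells. On the Treg arrays of slides 2 and 3 the lowest detected values were 90.2 and 144. Cd70 and Vegfc lay below them there, so the sizes of their differences are not resolved. Cc2d2a, Ttbk1 and Ccn4 were not detected in any Treg pool and were at least 9.21-fold, 8.55-fold and 7.06-fold higher in TFR cells.

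At the other end, Igfbp4, which encodes a binding protein for insulin-like growth factors, read 111, 55.4 and 98.1 in TFR cells and 3170, 2490 and 3030 in Treg cells. Its log2 difference was −5.09 ± 0.17 (limma, adjusted p = 8.9e-07). G0s2, an inhibitor of triglyceride breakdown, was lower at −4.16 ± 0.16 on the log2 scale. Art4, an ADP-ribosyltransferase family member, was lower at −3.93 ± 0.11. Ccr9, the receptor for the gut chemokine CCL25, read 149, 94.7 and 159 in TFR cells and 1600, 1444 and 1562 in Treg cells (log2 difference −3.55 ± 0.18). Values of these 4 genes did not overlap between the cell types. S100a9, a neutrophil and monocyte gene, was at the floor of 20 in all TFR pools and read 163, 1096 and 200 in Treg cells. It was at least 5.47-fold lower in TFR cells, but this call ended without slide 2 (log2 difference −3.18, adjusted p = 0.12) or slide 3 (−4.40, adjusted p = 0.055).

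**Figure D1:**
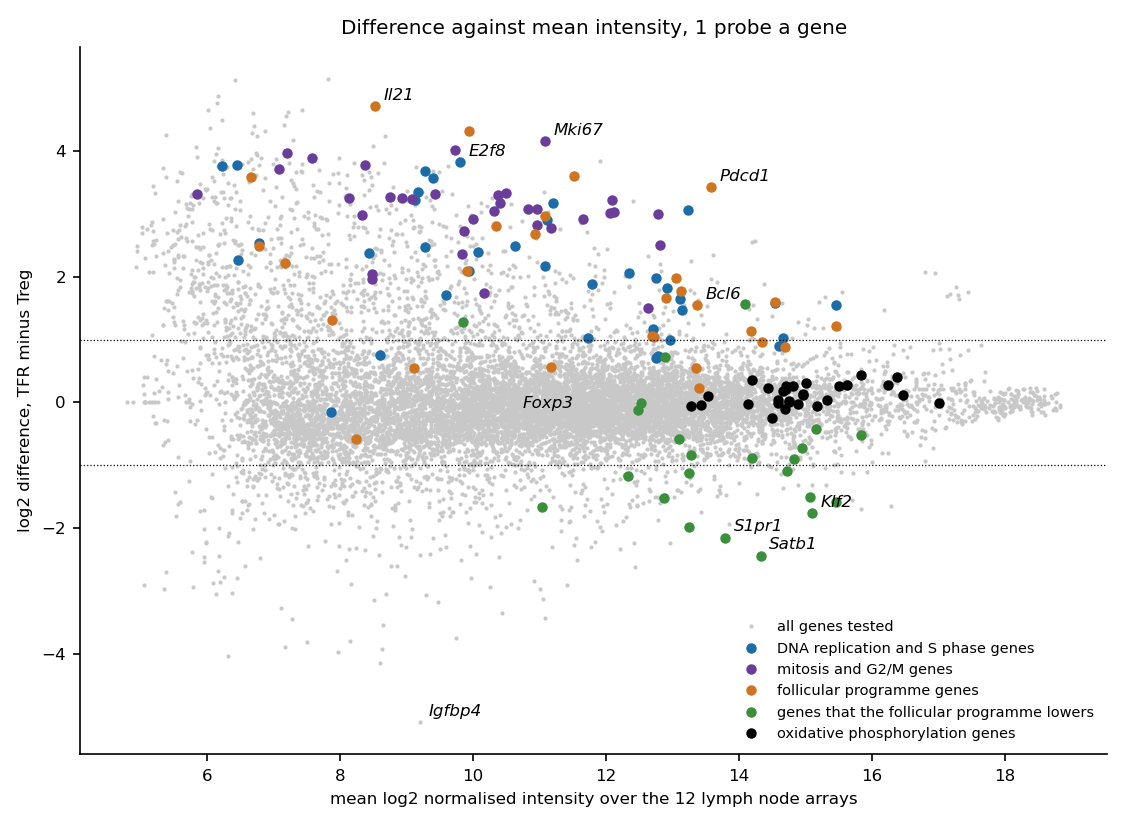
Each point is 1 gene, with the mean log2 normalised intensity over the 12 pLN arrays on the horizontal axis and the log2 difference of TFR minus Treg cells on the vertical axis; colours mark 5 gene lists. The mitosis and replication genes form a cloud above 0, the genes lowered by the follicular programme lie mostly below it and the oxidative phosphorylation genes lie at it.

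Genes of the cell cycle made up the most uniform difference between the cell types. All 34 tested genes of mitosis and G2/M were higher in TFR cells, with log2 differences from 1.51 for Cenpa to 4.16 for Mki67 and a median of 3.08. Of 36 tested genes of DNA replication and S phase, 30 were higher and none lower, with a median of 2.07. Over all genes the median was −0.04 and 10.5% were higher. Where only probes detected on all 6 arrays were tested, 22 mitosis genes remained to be tested and all 22 were higher.

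Mki67, which encodes the proliferation antigen Ki-67, read 29512, 11863 and 7226 in TFR cells and 2284, 1211 and 160 in Treg cells (log2 difference 4.16 ± 0.48, adjusted p = 0.00019). Both cell types were lowest on slide 3, and yet every TFR pool lay above every Treg pool. Top2a, the topoisomerase that untangles replicated DNA, read 7717, 6012 and 3439 against 1206, 702 and 338 (3.04 ± 0.26). E2f8, an E2F family repressor that is itself induced in S phase, read 7598, 5428 and 3517 against 608, 430 and 194 (3.83 ± 0.27). Cdk1, the kinase that drives entry into mitosis, read 608, 1066 and 454 in TFR cells and was not detected in any Treg pool, so it was at least 7.12-fold higher. The 6 replication genes not called were E2f7, E2f2, Cdt1, Tyms, Pcna and Chaf1b, with log2 differences from −0.15 to 0.99. Pcna, the sliding clamp of DNA polymerase, thus stood at 0.90, below the threshold.

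Of 21 genes of cell cycle inhibition and quiescence 3 were higher and 1 lower, with a median log2 difference of −0.35, counts near the background of 10.5% higher and 4.39% lower over all genes. The INK4 gene Cdkn2c read 3595, 4470 and 3533 in TFR cells and 1137, 883 and 873 in Treg cells (2.01 ± 0.15). Cdkn2a, which encodes p16 and p19ARF, was higher at 3.21 ± 0.46, and Cdkn1a, which encodes p21, at 1.82 ± 0.34. Where only probes detected on all 6 arrays were tested, 1 of 19 genes of this list was higher and 1 lower. The other higher genes were thus not detected on every array, and the sizes of their differences are not resolved. The only gene of this list called lower was Klf2, described with the egress genes. Cdkn1b, the p27 gene, had a log2 difference of −0.51 and was not called.

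Because replication and mitosis genes moved together, 4 of their promoters are shown, from the RefSeq table (GRCm38.p6), as the 250 bases before the start on the strand of the gene. Capitals mark letters of 3 motifs read on both strands, namely E2F (TTTCCCGC, TTTCGCGC, TTTGCCGC or TTTGGCGC), CHR (TTTGAA) and CCAAT. E2f8 and Orc1 belong to the replication list, Mki67 and Cenpe to the mitosis list.
E2f8 (chr7:48881597-48881846, minus strand): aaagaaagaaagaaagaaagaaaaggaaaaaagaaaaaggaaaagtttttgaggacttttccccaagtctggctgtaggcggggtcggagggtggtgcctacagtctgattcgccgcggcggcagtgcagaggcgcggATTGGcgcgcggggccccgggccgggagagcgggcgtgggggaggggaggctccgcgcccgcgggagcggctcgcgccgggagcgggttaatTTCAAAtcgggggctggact
Orc1 (chr4:108579204-108579453, plus strand): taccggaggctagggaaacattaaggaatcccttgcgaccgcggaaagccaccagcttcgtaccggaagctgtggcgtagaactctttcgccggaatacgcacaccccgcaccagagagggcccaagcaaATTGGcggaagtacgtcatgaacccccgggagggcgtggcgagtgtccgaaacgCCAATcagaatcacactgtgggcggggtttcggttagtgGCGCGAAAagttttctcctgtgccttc
Mki67 (chr7:135716380-135716629, minus strand): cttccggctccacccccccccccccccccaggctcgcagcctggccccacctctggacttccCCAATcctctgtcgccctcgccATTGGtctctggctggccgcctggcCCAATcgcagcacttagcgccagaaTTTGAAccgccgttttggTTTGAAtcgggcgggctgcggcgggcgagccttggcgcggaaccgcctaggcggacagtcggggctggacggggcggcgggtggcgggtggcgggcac
Cenpe (chr3:135212313-135212562, plus strand): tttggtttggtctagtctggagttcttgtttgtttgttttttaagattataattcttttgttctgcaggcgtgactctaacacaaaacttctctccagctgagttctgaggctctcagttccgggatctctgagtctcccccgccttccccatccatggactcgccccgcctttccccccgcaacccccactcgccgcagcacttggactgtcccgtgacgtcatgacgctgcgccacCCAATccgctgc

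In these windows Orc1 held 1 E2F and 2 CCAAT motifs and Mki67 2 CHR and 3 CCAAT motifs. E2f8, of the replication list, held no E2F motif but 1 CHR and 1 CCAAT motif. Cenpe, of the mitosis list, held no CHR motif and no E2F motif but 1 CCAAT motif. The log2 differences of the genes shown were 3.83 for E2f8, 3.78 for Orc1, 4.16 for Mki67 and 4.02 for Cenpe. Of 29 replication genes with a promoter in the table, 9 held an E2F motif (31.0%), against 1 of 30 mitosis genes (3.33%) and 3.92% of the 9445 tested genes with a promoter. A CHR motif stood in 5 of the 29 replication genes (17.2%), in 10 of the 30 mitosis genes (33.3%) and in 13.1% of tested genes. CCAAT was present in 65.5% of the replication, 70% of the mitosis and 40.7% of all tested genes. No E2F motif was present in the 22 follicular programme genes with a promoter. E2F and CHR motifs share their first letters TTT. The lists were not tested against each other, and a match is a description of the letters alone.

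Follicular genes were higher in TFR than in Treg cells, as a group of genes that was drawn up from knowledge of TFH cells and in part from the study itself, so that its direction is no independent evidence. Of 28 tested genes 21 were higher and none was lower, with a median log2 difference of 1.63, Pdcd1 of the sort gate being among the 21. Bcl6 (probe at chr16:23965160-23965219, mm9), the transcription factor that directs the follicular fate, read 8794, 10254 and 16807 in TFR cells and 3430, 4430 and 3964 in Treg cells. The log2 difference was 1.55 ± 0.25 (adjusted p = 0.0012). Cxcr5, the receptor for the follicle chemokine CXCL13, read 12125, 13683 and 15655 against 4260, 3233 and 3071 (1.98 ± 0.25, adjusted p = 0.00031). Both genes were higher on every slide, and neither group reached the other. Ascl2, which can start the follicular programme ahead of Bcl6, read 1351, 864 and 2338 in TFR cells and 309, 226 and 495 in Treg cells (2.10 ± 0.35).

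Cytokines of follicular T cells were among the strongest of these differences. Il21 (probe at chr3:37121681-37121740, mm9), whose product acts on germinal centre B cells, read 428, 373 and 914 in TFR cells and was at the floor of 20 in all Treg pools. TFR cells thus held at least 8.25-fold more (adjusted p = 3.6e-05). Il4, the B-cell helper cytokine, read 2697, 4169 and 3715 against 668, 555 and 234 (2.97 ± 0.59). Il1r2, a decoy receptor that binds interleukin 1 without signalling, read 23509, 23804 and 28358 against 4978, 1599 and 1123 (3.60 ± 0.60). The signalling receptor Il1r1 was at 323, 146 and 79.4 in TFR cells and 91.6, 20 and 20 in Treg cells, with a log2 difference of 2.23 and ranges that overlapped. Sostdc1, a secreted antagonist of BMP and Wnt signals, read 1203, 1021 and 1181 against 57.6, 64.1 and 49.5 (4.32 ± 0.36). Only 1 Treg array detected Sostdc1, so the size of its difference is not resolved. TFH cells of the same slides read far higher than TFR cells for Il21 (15019 to 17879), Il4 (37251 to 41849) and Sostdc1 (51058 to 91156). The part of any TFH cells within the TFR pools in these values was not tested.

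Maf and Icos were higher on every slide, but their calls ended when slide 3 was left out, and that of Maf also without slide 2. Maf, which supports Il21 and Il4, read 14580, 21876 and 26103 in TFR cells and 8604, 7236 and 3311 in Treg cells, with a log2 difference of 1.78 ± 0.43. Without slide 2 its log2 difference was 1.87 (adjusted p = 0.059), and without slide 3 its log2 difference was 1.18 (adjusted p = 0.096). The costimulatory receptor gene Icos read 101941, 76855 and 82125 against 62176, 32178 and 25594 (1.22 ± 0.26). Without slide 3 its log2 difference was 0.985 with an adjusted p of 0.059. The 7 follicular genes not called included S1pr2, which confines cells to the germinal centre (0.55 ± 0.13), Btla (0.22), Cd200 (0.56) and the adaptor Sh2d1a (0.88).

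Of 23 genes that the follicular programme lowers 11 were lower in TFR cells, 2 were higher and 10 were not called, with a median of −0.91 against −0.04 over all genes and a background of 4.39% lower. Klf2 (probe at chr8:74845137-74845196, mm9) read 37163, 27296 and 14466 in TFR cells and 78874, 86605 and 84680 in Treg cells (−1.77 ± 0.32, adjusted p = 0.0019). S1pr1 read 10222, 9620 and 5983 against 39698, 37291 and 35062 (−2.15 ± 0.20, adjusted p = 5.8e-05). Ccr7 read 34295, 27697 and 36476 against 97490, 93710 and 103238 (−1.59 ± 0.20). Klf2 and both receptors were lower on all 3 slides, and for Klf2 and S1pr1 the TFR value of slide 3 was the lowest.

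The chromatin organiser Satb1 was lower too, with 12342, 7895 and 3801 in TFR cells and 41713, 42792 and 33114 in Treg cells (−2.44 ± 0.26). Bach2, a repressor of effector genes, read 1026, 1326 and 1899 against 4458, 4068 and 4550 (−1.67 ± 0.17). Tsc22d3, the glucocorticoid-induced leucine zipper, was lower at −1.99 ± 0.17. The 2 genes of the list called higher were Prdm1 and Tbc1d4. Tbc1d4, a regulator of glucose transporter traffic, read 17533, 27349 and 51743 in TFR cells and 9054, 10154 and 10531 in Treg cells (1.56 ± 0.29). Against its place in the list, Tbc1d4 was also higher in TFH than in naive T cells of pLN (4.27). The interleukin 7 receptor Il7r, at −0.59, and Foxo1, at −0.88, were not called.

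**Figure D2:**
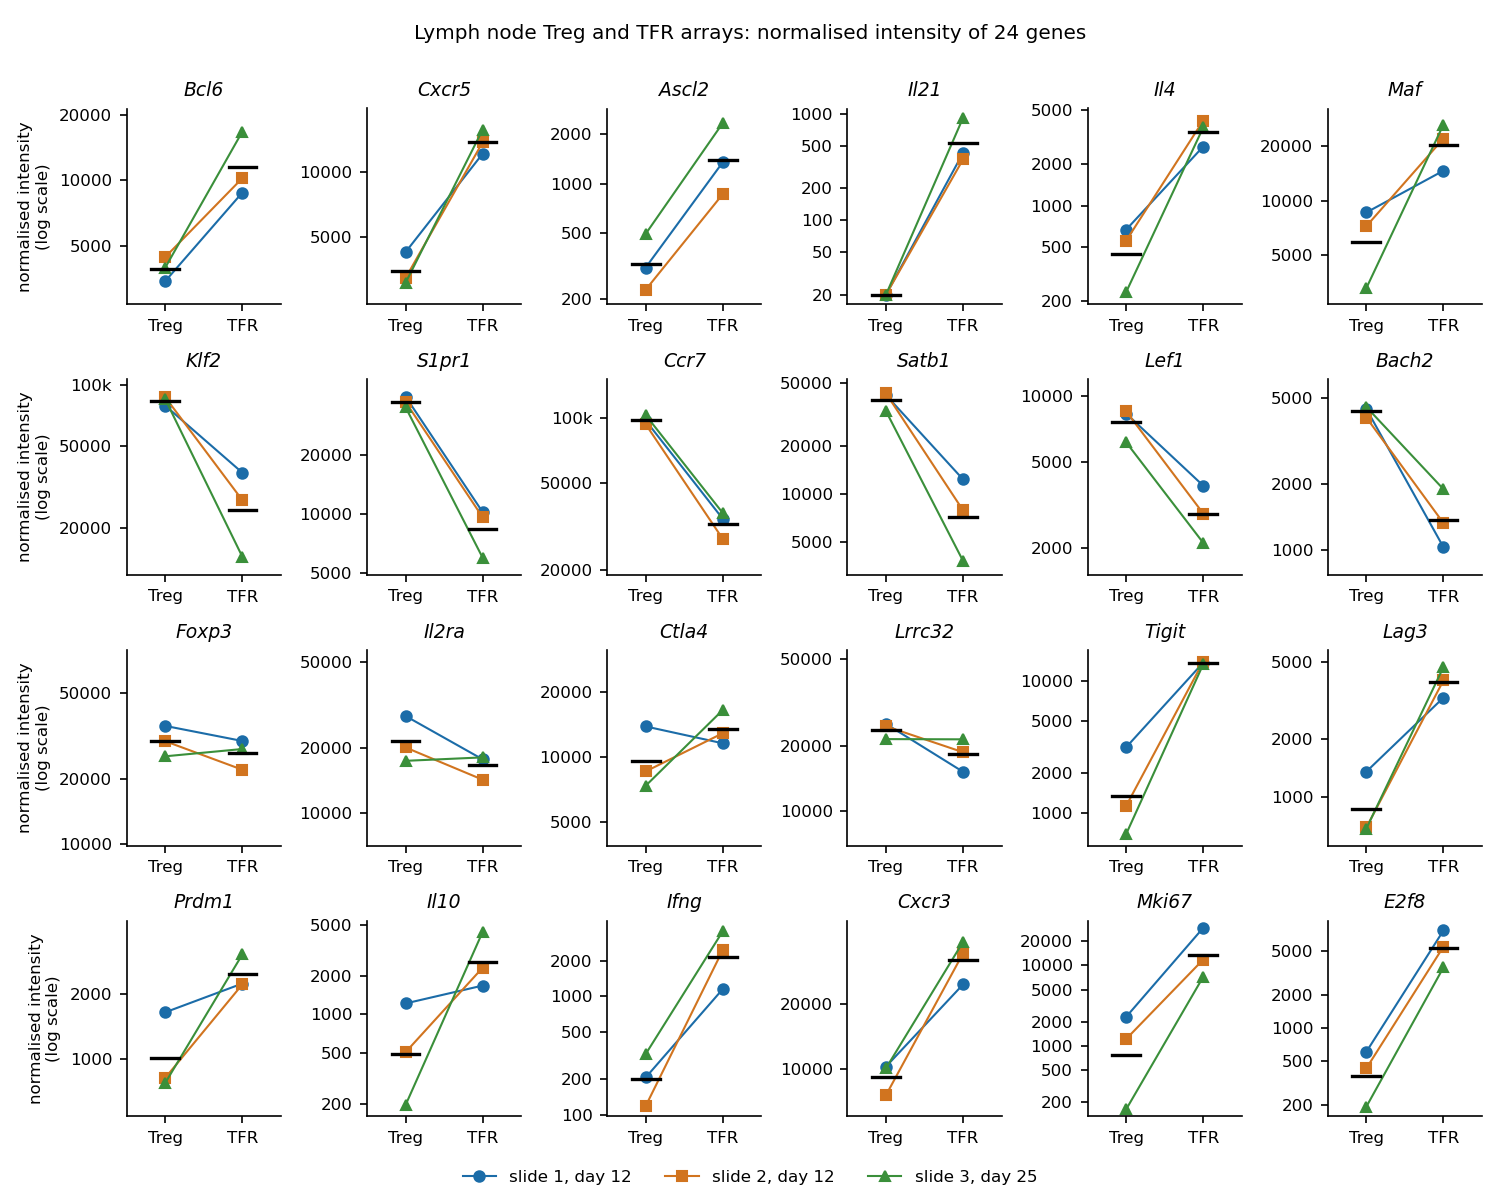
Normalised intensity (log scale) of 24 genes in Treg and TFR pools, with 1 line for each slide joining its Treg and TFR array and a black bar at the geometric mean of each cell type. Lines of Klf2, S1pr1, Ccr7 and Satb1 all descend towards TFR cells, those of Bcl6, Cxcr5, Il21 and Mki67 all ascend, and those of Foxp3, Il2ra and Ctla4 show no common direction or a slope under the threshold.

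Of 18 Treg identity genes 2 were higher and 1 lower in TFR cells, a share near the background of 10.5% and 4.39%, and the median was −0.10. Il2ra, the high-affinity interleukin 2 receptor chain, read 17697, 14256 and 18068 in TFR cells and 28054, 20081 and 17418 in Treg cells (−0.37 ± 0.24, adjusted p = 0.23). Ctla4, an inhibitory receptor through which Treg cells act, read 11536, 12845 and 16444 against 13800, 8561 and 7352 (0.50 ± 0.37, adjusted p = 0.29). For both genes the ranges overlapped. Lrrc32, which presents latent TGF-beta, had a log2 difference of −0.38 ± 0.26. The 1 lower gene was Gpr83, an orphan receptor, with 83.4, 178 and 261 in TFR cells and 903, 947 and 774 in Treg cells (−2.47 ± 0.31). Nt5e, the CD73 ectonucleotidase gene, was higher at 1.28 ± 0.22, and at 0.911 and not called without slide 3. Ikzf2, which encodes Helios, was higher at 1.05 ± 0.30 but not without slide 2 (1.06, adjusted p = 0.078) or slide 3 (0.722, adjusted p = 0.18).

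Effector Treg genes were higher in TFR cells, although Gzma and Gzmb, which encode cytotoxic granule proteases, were not called. Of 31 tested genes 19 were higher and none lower, with a median of 1.34. The count was 12 without slide 2. Penk, the enkephalin precursor, read 52318, 52318 and 81836 in TFR cells and 6099, 3435 and 3644 in Treg cells (3.84 ± 0.48). Ccr8, a chemokine receptor of activated Treg cells, read 2248, 1276 and 1484 against 599, 244 and 283 (2.23 ± 0.15). Il10, the anti-inflammatory cytokine, read 1671, 2305 and 4382 in TFR cells and 1212, 503 and 194 in Treg cells. No TFR pool lay below a Treg pool, but the Il10 difference of 2.38 ± 0.75 (adjusted p = 0.026) was not called without slide 2 (adjusted p = 0.14) or slide 3 (1.33, adjusted p = 0.062). Prdm1, which encodes the terminal differentiation factor Blimp-1, read 2242, 2222 and 3056 against 1652, 823 and 780 (1.28 ± 0.25). It was not called without slide 2 (1.21, adjusted p = 0.062) or slide 3 (0.937). Granzyme B, encoded by Gzmb, read 3978, 8170 and 3016 against 6726, 6135 and 1821 (0.13 ± 0.42, adjusted p = 0.81). Areg, the tissue repair factor amphiregulin, was higher at 2.75 ± 0.34.

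Several inhibitory receptor genes were higher too. Tigit, Lag3 and Havcr2 also belong to the effector Treg list, so the 2 lists are not separate evidence. Of 25 inhibitory and costimulatory receptor genes 8 were higher, Pdcd1 of the sort gate among them, and none lower, with a median of 0.47. Over all genes 10.5% were higher and 4.39% lower. Tigit, which competes with CD226 for its ligand, read 13869, 14108 and 13479 in TFR cells and 3157, 1133 and 693 in Treg cells (3.35 ± 0.39, adjusted p = 0.00021). TFR pools were nearly equal in Tigit, and the spread lay among the Treg pools. Lag3, an inhibitory receptor for MHC class II, read 3259, 3997 and 4682 against 1354, 698 and 689 (2.18 ± 0.31). Havcr2, which encodes TIM-3, was higher at 3.27 ± 0.25 and Cd160 at 1.88 ± 0.20. Cd28 (0.16), Btla (0.22) and Cd27 (−0.27) were not called.

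Genes of the type 1 response were higher in pLN TFR cells for the most part. Of 15 tested genes 8 were higher and 1 lower, with a median of 1.22, and 4 were higher without slide 2. Ifng, the interferon gamma gene, read 1154, 2458 and 3538 in TFR cells and 208, 119 and 327 in Treg cells (3.42 ± 0.33, adjusted p = 7.6e-05). Tbx21, which encodes T-bet, read 1019, 1591 and 1437 against 348, 331 and 510 (1.77 ± 0.41). Cxcr3, a T-bet target that guides cells to inflamed tissue, read 24669, 34295 and 38766 against 10302, 7602 and 10115 (1.79 ± 0.41). Neither group reached the other for these 3 genes. Tbx21 was not called without slide 2 (1.52, adjusted p = 0.088), nor Cxcr3 without slide 2 (adjusted p = 0.072) or slide 3 (adjusted p = 0.060). Nkg7, a cytotoxic granule membrane gene, was higher at 1.96 ± 0.20. Eomes, a relative of T-bet, was lower at −1.38 ± 0.44, but not called without slide 2 (−1.12, adjusted p = 0.22).

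Of 10 tested type 2 and type 17 genes 5 were higher and 1 lower, with a median of 1.39. Ccr6, the receptor for CCL20, read 21209, 22846 and 26945 in TFR cells and 6808, 4369 and 4499 in Treg cells (2.20 ± 0.35). Ahr, the aryl hydrocarbon receptor gene, was higher at 1.79 ± 0.38. The receptor for interleukin 4 moved against its ligand: Il4ra read 1102, 1427 and 1134 in TFR cells and 3997, 4961 and 4483 in Treg cells (−1.88 ± 0.12, adjusted p = 1.4e-05). Gata3, the lead factor of type 2 cells, was not called (0.72).

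Receptors of migration were split. Of 20 chemokine and egress receptor genes 5 were higher, namely Cxcr3, Cxcr5, Ccr6, Ccr8 and Cx3cr1, and 3 were lower, namely Ccr9, S1pr1 and Ccr7. Over all genes 10.5% were higher and 4.39% lower. The call for Cx3cr1 ended without slide 3 (adjusted p = 0.054). The median was 0.45, with 9 higher without slide 1 and 3 without slide 3. Of 22 genes of integrins, selectin ligand synthesis and plexins 5 were higher and 8 lower, with 8 higher without slide 1. Itgb3, the integrin beta 3 chain, read 1813, 2262 and 1580 in TFR cells and 7029, 10464 and 10638 in Treg cells (−2.31 ± 0.15). Fut7, a fucosyltransferase that builds selectin ligands, read 9934, 10235 and 7312 against 2972, 1958 and 1225 (2.24 ± 0.39). Their directions were thus opposite although both serve adhesion. Gcnt1, which acts on the same ligands, was higher at 2.41 ± 0.50, but not without slide 3 (adjusted p = 0.063). Itgae, which encodes CD103, read 4444, 3610 and 5417 against 4444, 2278 and 1715 and was not called (0.77 ± 0.40).

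Of 44 T cell transcription factor genes 17 were higher and 4 lower, with a median of 0.69. Cebpa, a factor better known from myeloid cells, read 3549, 2389 and 2226 in TFR cells and 350, 165 and 128 in Treg cells (3.77 ± 0.49). Zbtb32, a repressor of cytokine genes, was higher at 2.98 ± 0.37 and Nr4a2, an orphan nuclear receptor, at 2.21 ± 0.27. The 4 lower genes were Satb1, Klf2, Bach2 and Lef1. Lef1, a factor of naive and memory cells, read 3872, 2881 and 2109 against 8338, 8537 and 6141 (−1.41 ± 0.15). Its partner Tcf7 read 23078, 27766 and 32282 against 33821, 42396 and 38287, a log2 difference of −0.47 ± 0.11 that passed the p threshold (0.0079) but not the fold.

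Of 17 antigen receptor response genes 2 were higher and 1 lower, near the background of 10.5% and 4.39%, with a median of 0.26. Nr4a2 and the phosphatase gene Dusp4 (1.73 ± 0.18) were higher. Cd69, which opposes S1PR1 at the cell surface, read 6161, 4910 and 8281 in TFR cells and 20574, 9802 and 11085 in Treg cells (−1.05 ± 0.20), and was at −0.709 and not called without slide 1. Nr4a1 (0.43), Egr1 (0.24) and Myc (−0.76) were not called.

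**Figure D3:**
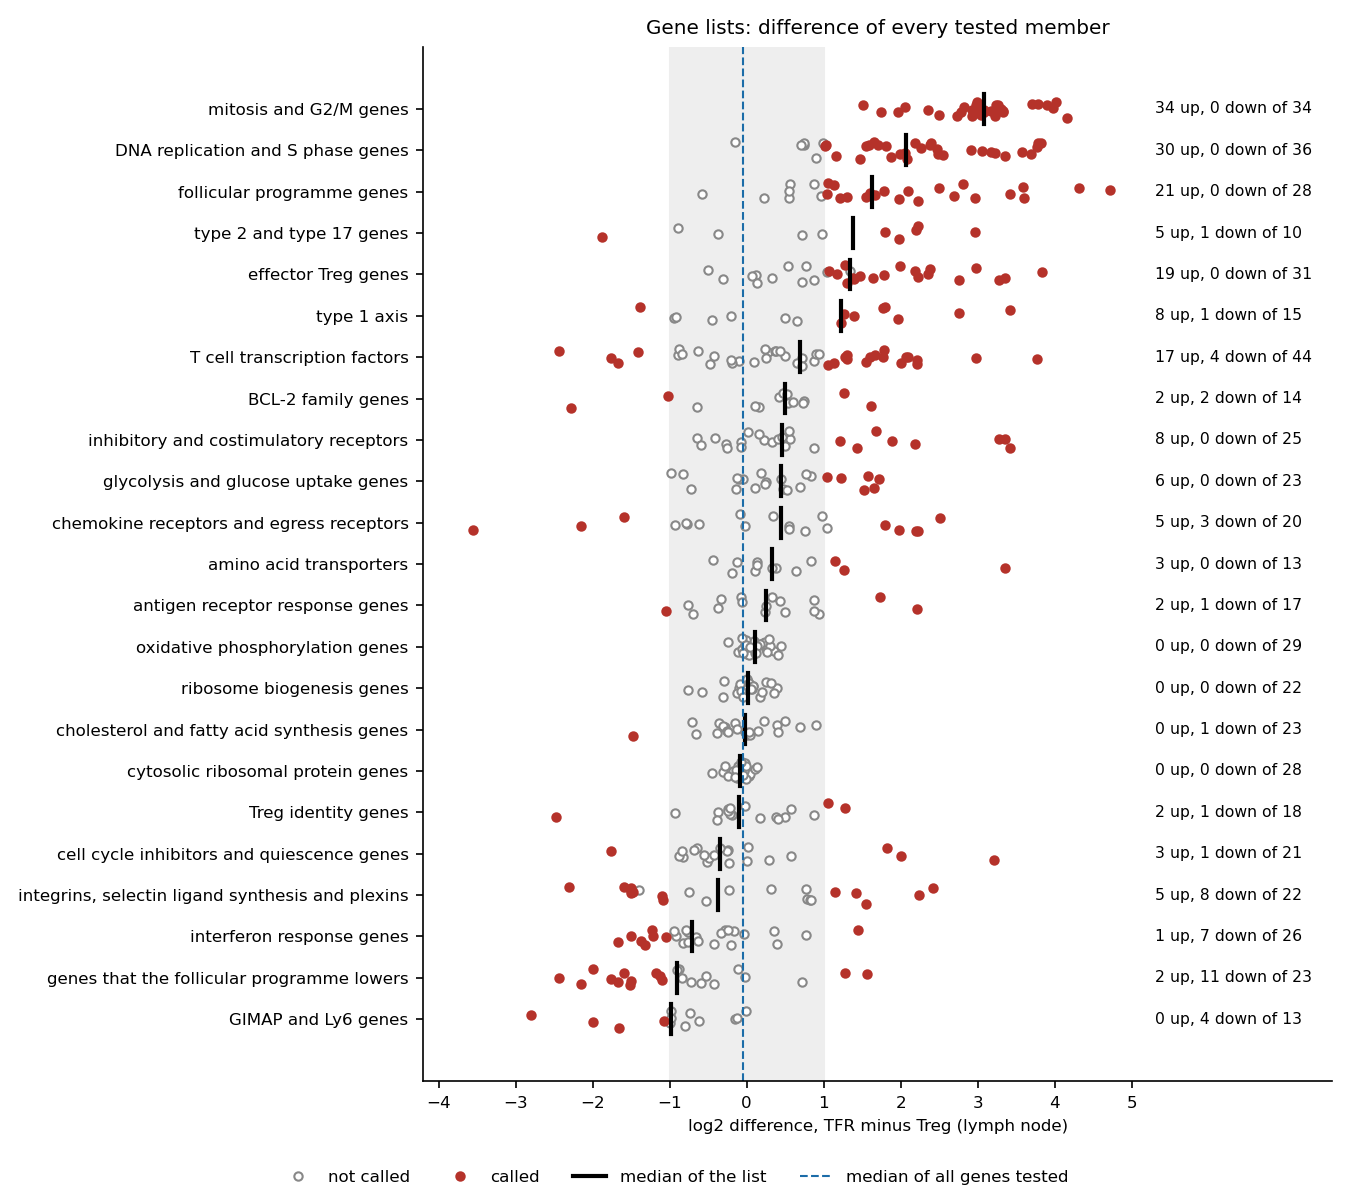
Log2 difference of TFR minus Treg cells for every tested member of 23 gene lists, ordered by list median; filled points are called genes, open points are not, black ticks are list medians and the dashed line is the median of all genes. Mitosis and replication lie furthest to the right and the GIMAP and Ly6 genes furthest to the left, while ribosomal protein and oxidative phosphorylation genes lie within the grey band of less than 2-fold.

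Genes of energy metabolism and protein synthesis had few calls. None of 29 oxidative phosphorylation genes was called, with log2 differences from −0.25 to 0.44. None of 28 cytosolic ribosomal protein genes was called either, with a range of −0.45 to 0.13, nor any of 22 ribosome biogenesis genes. The ribosomal protein median was −0.08, and −0.65 under 75th percentile scaling alone, still with no call. Glycolysis showed 6 of 23 genes higher and none lower, with a median of 0.45, against 10.5% higher and 4.39% lower over all genes. Pgam1, a glycolytic mutase, read 52630, 49223 and 50607 in TFR cells and 21367, 22422 and 21247 in Treg cells (1.23 ± 0.09). Tpi1, which interconverts triose phosphates, was higher at 1.58 ± 0.12, and Hk2, the inducible hexokinase, at 1.66 ± 0.30. The glucose transporter genes Slc2a1 (−0.72) and Slc2a3 (−0.83) were not called. Of 13 amino acid transporter genes 3 were higher, led by Slc7a10 (3.35 ± 0.78). Its call ended without slide 2 (3.36, adjusted p = 0.052) and without slide 3 (3.34, adjusted p = 0.050), with the difference nearly unchanged.

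Interferon response genes leaned low. Of 26 genes 7 were lower and 1 higher, with a median of −0.71, and 3 were lower without the slide block. Over all genes 4.39% were lower and 10.5% higher. Usp18, which damps interferon receptor signalling, read 1312, 2945 and 2727 in TFR cells and 4466, 8604 and 8788 in Treg cells (−1.67 ± 0.14, adjusted p = 4.5e-05). Both cell types were lowest on slide 1 for this gene. Gbp2, a guanylate-binding protein gene, was lower at −1.23 ± 0.17. Isg15 (−0.43) and Irf7 (−0.77) were not called.

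Of 14 BCL-2 family genes 2 were higher and 2 lower, against 10.5% higher and 4.39% lower over all genes. Bcl2, the survival factor downstream of interleukin 7, read 1686, 1368 and 1468 in TFR cells and 8217, 6635 and 7066 in Treg cells (−2.28 ± 0.13, adjusted p = 8.1e-06). Bcl2l1, which encodes BCL-XL, was at 0.75 and Mcl1 at −0.65, neither called. The pro-apoptotic gene Bcl2l11, which encodes BIM, was lower at −1.02 ± 0.22, and not called without slide 2 or 3, while Pmaip1, which encodes NOXA, was higher at 1.61 ± 0.31 and not called without slide 3 (adjusted p = 0.052). None of the 13 GIMAP and Ly6 genes, which serve lymphocyte survival or mark the cell surface, had a log2 difference above 0 as normalised here, with Gimap5 nearest at −0.01. Their median was −0.98, and 4 were called lower, including Ly6c1 (−1.66 ± 0.13), whose probe may also read its near-identical neighbour Ly6c2, and Gimap7 (−1.07 ± 0.19), which was not called without slide 1 (−0.899). Under 75th percentile scaling alone 8 of the 13 were lower.

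Markers of other cell types were read in both fractions, and their sums differed between them. The summed intensity of 12 B-cell genes was 7955 to 9382 in TFR pools and 11515 to 19408 in Treg pools, with Cd72 lower in TFR cells and none higher. Germinal centre B-cell genes summed to 68919 to 112056 in TFR and 40278 to 61810 in Treg pools, nearly all of it from Eaf2, while Mybl1 was at the floor of 20 on all 6 arrays. Plasma-cell genes summed to 26606 to 31803 in TFR and 23804 to 50571 in Treg pools, with Derl3 higher (2.05), stromal and endothelial genes to 2110 to 2641 and 3470 to 4247, and erythroid and platelet genes to 263 to 5711 and 1786 to 8925. Of the stromal genes Col1a2 (1.57) and Col1a1, which no Treg pool detected, were higher and Pecam1 (−1.09) lower in TFR cells. Myeloid genes summed to 50826 to 59037 in TFR and 60397 to 77151 in Treg pools, most of it from Siglech (39915 to 60686). Likewise, Cd79b was the largest part of the B-cell sum and Xbp1 of the plasma-cell sum. Cd68 (1.97) and Lyz2 (1.03) were higher in TFR cells, against the direction of the sum, and the dendritic cell gene Itgax was not detected. The CD8 and NK sum was 4111 to 6438 in TFR pools and 10459 to 13455 in Treg pools, with Prf1 (−1.89), Klrd1 (−1.34) and Cd8a (−1.15) lower and Klrb1c (2.18) higher in TFR cells. Epithelial genes summed to 1629 to 2364 in TFR pools and 731 to 914 in Treg pools, with Epcam (2.04) and Krt18 (2.16) higher and Krt8 at the floor of 20 in all TFR pools. The part of such cells in the differences above was not tested.

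The difference between TFR and Treg cells was next compared between d12 and d25. None of the 18698 probes was called in the limma test of the change in difference (0.0%), with 1372 probes at an unadjusted p under 0.05 and 70 called where all probes were tested. The 1 Treg pool of d25 nevertheless read below both Treg pools of d12 for Mki67 (160 against 2284 and 1211), Il10 (194 against 1212 and 503) and Tigit (693 against 3157 and 1133). With 1 slide on d25 these values cannot be separated from the slide. The 1 array per cell type on d25 also adds nothing to the estimate of spread in the day test. The test could thus miss large day differences, and the lack of calls does not show that the days were alike.

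The regulatory step, TFR minus Treg, was then set against the helper step, TFH minus naive T, on the same slides. The pLN TFH pools were GL7-positive, whereas TFR cells were taken with or without GL7, and TFH cells of slide 1 had a B-cell sum of 26231 and a plasma-cell sum of 122859 against 6723 to 6915 and 32083 to 43125 on the other slides. Of the 18698 probes 562 had a larger (3.01%) and 848 a smaller value (4.54%) in the regulatory step. Of 12316 genes 423 had a larger value in the regulatory step (3.43%) and 651 a smaller one (5.29%). Follicular genes moved less in the regulatory step: 23 of 28 were called smaller and none larger, with medians of 1.63 and 3.76. Ascl2 had log2 differences of 2.10 in the regulatory and 9.72 in the helper step (difference −7.62 ± 0.49). No naive T array detected Ascl2 (58.9, 50.1 and 35.9), so the size of its helper step is not resolved. Cxcr5 had 1.98 and 6.57 (−4.59 ± 0.35) and Bcl6 1.55 and 3.40 (−1.85 ± 0.36). Mean intensity in Treg and naive T cells, where the steps start, was 3521 and 1123 for Cxcr5 and 3941 and 5191 for Bcl6. As the list was drawn up from knowledge of TFH cells, its larger helper step is no independent evidence. The call for Bcl6 ended without slide 1 or 2.

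Of the 23 genes lowered by the follicular programme 10 had a larger value in the regulatory step (less lowered, or higher) and 4 a smaller one, while the 20 chemokine and egress receptor genes had 3 of each. Ccr7 had −1.59 in the regulatory and −3.61 in the helper step (2.03 ± 0.28), and Bach2 had −1.67 and −3.40 (1.73 ± 0.24). Ctla4 had 0.50 and 3.93 (−3.43 ± 0.53), and Il2ra −0.37 and 2.01 (−2.38 ± 0.35). For both genes the regulatory step started higher, with means of 9904 in Treg and 586 in naive T cells for Ctla4. For Il2ra these means were 21851 and 174. TFR cells ended above TFH cells, with means of 13609 and 9113 for Ctla4 and 16674 and 680 for Il2ra. A smaller group was larger in the regulatory step. Vegfc had 4.66 and 0.06 (4.60 ± 0.42), Ccr8 2.23 and 0.30 (1.93 ± 0.21) and Prdm1 1.28 and −0.05 (1.33 ± 0.36). The call for Prdm1 ended without slide 2 or 3 and that for Ccr7 without slide 3. Il18r1, a receptor chain for interleukin 18, went in opposite directions with 1.40 and −1.19 (2.59 ± 0.30). Of the mitosis genes 7 of 34 were smaller and none larger in the regulatory step, with medians of 3.08 and 3.91.

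**Figure D4:**
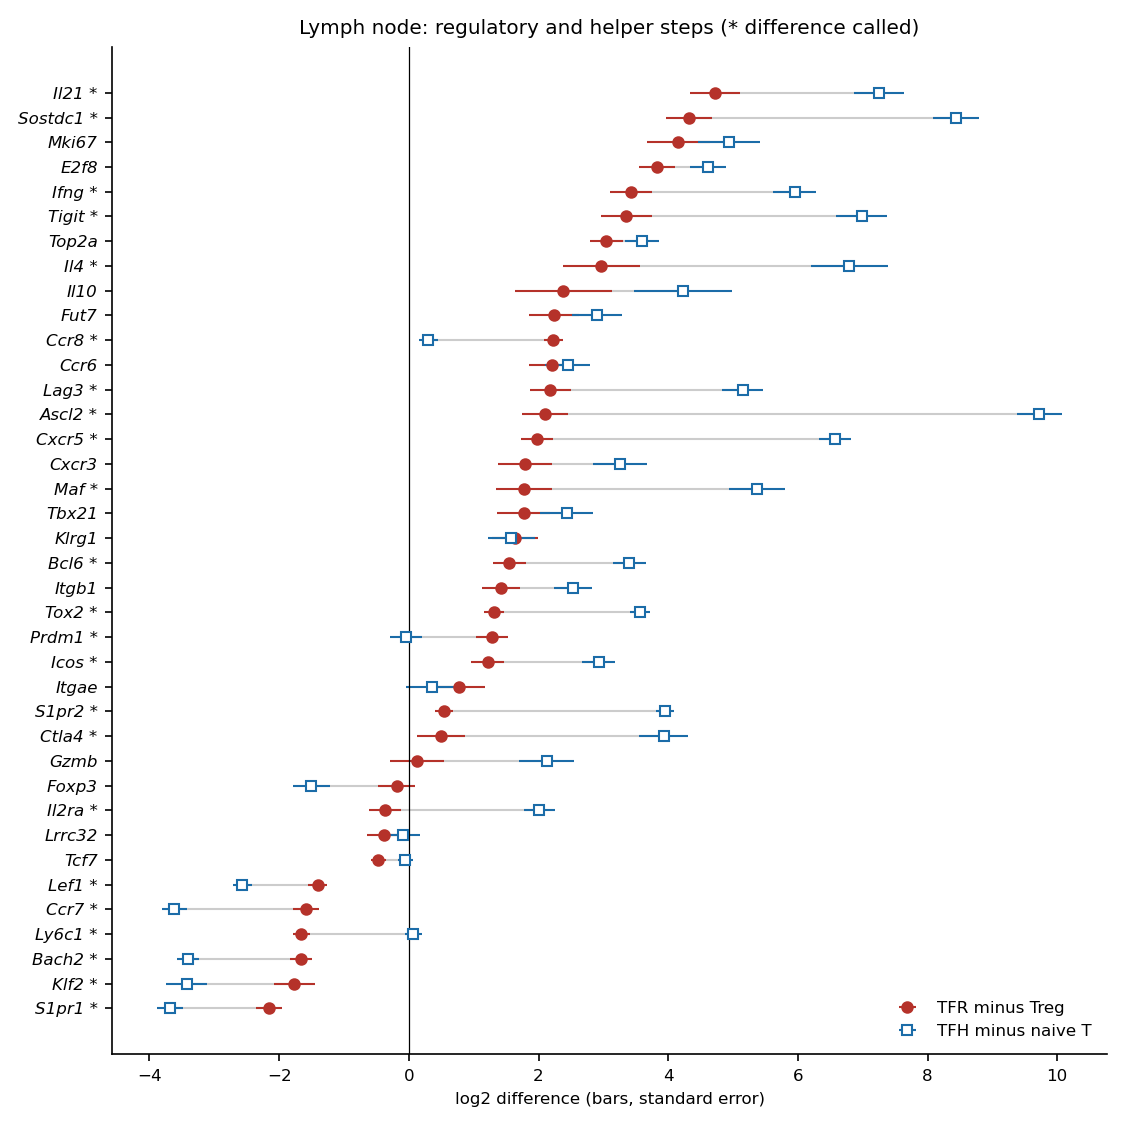
Log2 differences of key genes in pLN, with filled red points for TFR minus Treg and open blue squares for TFH minus naive T, bars of 1 standard error and an asterisk where the difference between the steps was called. Blue squares lie further from 0 than red points for Ascl2, Cxcr5, Tigit and Ccr7, and nearer to 0 for Ccr8 and Prdm1.

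TFR and Treg cells had also been sorted from Peyer's patches (PP), gut follicles with lasting germinal centres, as 2 pools per cell type on slides 4 and 5. They came from mice of the same strain and age, and their labels name no immunisation. In slide 4, PP TFR and Treg pools had B-cell sums of 173446 and 116700 against 14180 and 16533 in slide 5, and the part of this in the tissue comparison was not tested. Of 12316 genes 435 had a larger step in pLN (3.53%) and 265 a smaller one (2.15%), while 1131 genes were called in the same direction in both tissues. Of all 22146 probes in this test 1179 were called (652 larger in pLN, 2.94%, and 527 smaller, 2.38%), but 365 without slide 4, 562 without slide 5 and 626 without slide 2. The majority turned to smaller in pLN without slide 2 (286 larger, 340 smaller), slide 3 (503 and 512) or slide 4 (162 and 203), and without the slide block (99 and 147). Among type 1 genes 7 of 15 were larger in pLN and none smaller. Cxcr3 had a log2 difference of 1.79 in pLN and −2.23 in PP (difference 4.02 ± 0.60), and Ifng 3.42 and 0.19 (3.24 ± 0.47). Tbx21 had 1.77 and −1.44 (3.21 ± 0.60). Each of these 3 calls ended without slide 4, with the sign unchanged.

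Effector genes followed the type 1 genes, with 7 of 31 larger in pLN and none smaller. Havcr2 had 3.27 in pLN and −1.14 in PP (4.41 ± 0.57). Lmna, which encodes lamin A and C and lies outside the effector list, had 1.37 and −2.93 (4.30 ± 0.37). Havcr2 and Lmna were among the 5 largest differences of the tissue test, and both kept their call without each of the 5 slides in turn. Il10 had 2.38 and −2.30 (4.69 ± 1.13), a call that ended without slide 2, 4 or 5. Follicular genes pointed the other way, with 11 of 28 smaller in pLN and 1 larger. Ascl2 had 2.10 in pLN and 6.11 in PP (−4.01 ± 0.49), and Bcl6 1.55 and 3.19 (−1.64 ± 0.36), the latter not called without slide 2, 4 or 5. In all, 13 genes were called in opposite directions in pLN and PP with the difference itself called, Cxcr3, Tbx21 and Lmna among them.

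**Figure D5:**
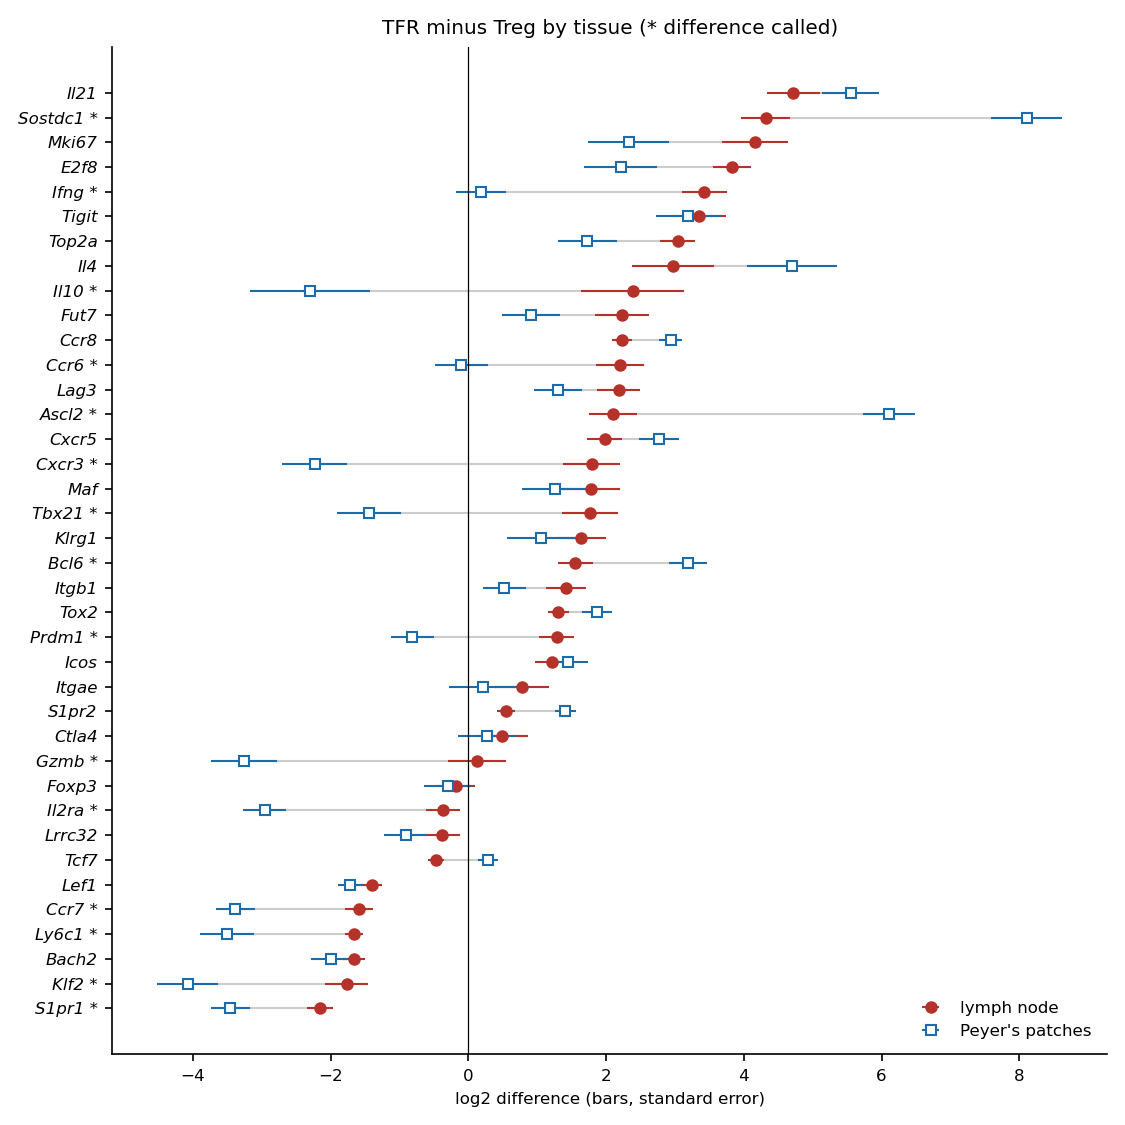
Log2 differences of TFR minus Treg cells for key genes, with filled red points for pLN, open blue squares for PP, bars of 1 standard error and an asterisk where the difference between the tissues was called. Cxcr3, Tbx21 and Il10 lie on opposite sides of 0 in pLN and PP, while Ascl2 and Sostdc1 lie further from 0 in PP.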

How the data were processed

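RNA of sorted CD4 T-cell pools was measured on 20 single-colour Agilent arrays, 6 of which are compared here. For each printed feature the deposited scanner files hold processed intensity, which the authors obtained with Agilent Feature Extraction 10.7.3.1, and other columns that mark outliers, saturation and signal well above background. The authors' own value table holds intensity averaged per probe, quantile normalised, scaled and floored, and served as an alternative.

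The measurements used here were derived again from those files. Features marked as outliers were dropped, the others of a probe (4 features for each of 39429 probes) were combined by their geometric mean, and the arrays were then quantile normalised. Scaling set the 75th percentile to 1500, values under 20 were raised to 20, and log2 was applied last. The median deviation from the authors' table was 0.0347 to 0.0362 per array (log2). A probe was detected where at least 3 of 4 features were well above background. No probe was saturated. The lowest detected normalised intensity was 20 to 144, so smaller values are not resolved. Gene symbols came from the RefSeq table by accession for 27592 probes and otherwise from the files. In all, 32998 probes had a symbol, 4 matched several genes and 6427 had none.

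The test was limma 3.58.1 in R 4.3.3 on 12 pLN arrays, two-sided, with slide as a block, 6 residual degrees of freedom and Benjamini-Hochberg adjustment over all tested probes. For 1 probe a gene, the probe with the highest mean was kept. Each slide held 1 pool per cell type, which is the source of the pairing. Same-slide TFR and Treg arrays deviated together from their group means (correlations 0.695, 0.557 and 0.545, against −0.580 to 0.200 between slides). Deviations from a mean of 3 arrays sum to 0, so the low values between slides follow in part from the positive ones within slides. With slide as a block, p-values measure how far cell type differences vary from slide to slide, shared over naive T, TFH, Treg and TFR pools. Spread common to all pools of a slide is taken out, and any change from d12 to d25 is part of what remains. Contrasts of days, of steps and of tissues used the same threshold. "At least" folds compare the bright group with the detection limit of the dim arrays. The members, gene lists, markers and motifs were chosen with earlier results of these data known. Named by rule were 40 key genes, the 12 highest and 12 lowest called genes with detection on all 3 arrays of the higher group, up to 6 called members with the largest differences in each list (all where 5 or fewer were called in a direction) and the 5 largest and 5 smallest in the contrasts of steps and tissues, 146 in all. Other genes, among them list members given as not called, were chosen after their values were seen. Some members of the lists are not reported here by name. Tested on simulated data for this comparison, 92% of changes of log2 1.5, 96% of 2, 98% of 3 and 92% of −2 were recovered, with 2 false calls among 18498 probes. The simulation changed 50 probes for each size, drew independent normal errors and left out the normalisation. In the data 13.3% of probes were called, so the simulated count of false calls does not carry over to them. Alternatives covered the block, the samples fitted, background correction, scaling, floor, filter, moderation, weights and the methods' variance analysis, and each array and slide was left out in turn.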

Additional observations from a re-analysis of the deposited data

Results flagged for a closer look

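The results below were picked out because the step from Treg to TFR cells in pLN differed from another step by a test of the difference itself, with adjusted p under 0.05 and at least 2-fold. Negative values mean that the pLN TFR step was the lower one, positive values that it was the higher one, all on the log2 scale. Groups of 3 arrays were not examined for single outlying arrays.

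Against the step from naive T to TFH cells, 1410 probes were called. Among follicular genes the difference was −2.95 for Pdcd1 (used in the sort), −1.85 for Bcl6, −4.59 for Cxcr5, −1.71 for Icos, −7.62 for Ascl2, −3.59 for Maf, −4.12 for Sostdc1, −3.4 for S1pr2 and −2.26 for Tox2. For cytokine genes it was −2.54 for Il21, −3.82 for Il4 and −2.53 for Ifng. No naive T array detected Ascl2 or Ifng, no Treg array detected Il21 and only 1 Treg array detected Sostdc1. The differences of these genes are thus not resolved in size. Inhibitory receptor genes gave −3.43 for Ctla4, −3.63 for Tigit and −2.96 for Lag3, and Il2ra gave −2.38. Each of these genes started higher in Treg than in naive T cells, with means of 1661 and 104 for Tigit. Of the follicular genes, Icos (39982 and 12925), Maf (6384 and 1232) and Cxcr5 (3521 and 1123) also started higher in Treg cells. Bcl6 (3941 and 5191) and Sostdc1 (57.1 and 221) started lower there. Icos ended at means of 86974 in TFR and 106602 in TFH cells. Genes of homing and quiescence, which both steps lowered, gave 1.66 for Klf2, 1.53 for S1pr1, 2.03 for Ccr7, 1.16 for Lef1 and 1.73 for Bach2. Ly6c1, lower in TFR cells alone, gave −1.73. Prdm1 gave 1.33 and Ccr8 1.93. The most negative other differences were −6.62 for Abcc3, −6.2 for Plagl1, −5.99 for Fam43a and −5.84 for Slc43a1, and the most positive 4.78 for Pdlim4, 4.6 for Vegfc, 4.55 for Elovl7, 4.5 for Dscam and 4.26 for Tdpoz4. All 33 genes kept their sign without any 1 slide. The number still called was 27 without slide 1, 26 without slide 2 and 25 without slide 3.

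Against the same step in PP, 1179 probes were called. Follicular genes gave −1.35 for Pdcd1 (used in the sort), −1.64 for Bcl6, −4.01 for Ascl2 and −3.79 for Sostdc1. Only 1 pLN Treg array detected Sostdc1, so its difference is not resolved in size. Type 1 and effector genes gave 2.1 for Prdm1, 4.69 for Il10, 3.39 for Gzmb, 3.21 for Tbx21, 3.24 for Ifng, 4.02 for Cxcr3 and 4.41 for Havcr2. Genes of homing and receptors gave 2.31 for Klf2, 1.3 for S1pr1, 1.8 for Ccr7, 1.85 for Ly6c1, 2.59 for Il2ra and 2.31 for Ccr6. The remaining differences were 4.5 for Dnah7a, 4.4 for Stfa3, 4.3 for Lmna, −4.22 for Gal, −4.01 for Gm3367, −3.94 for Igf2bp2 and −3.92 for Stc2. All 24 genes kept their sign without any 1 slide, but only 7 were still called without slide 4, whose PP pools had the high B-cell sums, and 10 without slide 5.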

How the results depend on the processing

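The 2489 probes called between TFR and Treg cells ranged from 2350 to 2651 when 1 array or 1 slide was left out, and were 2369 without the replicate block, so pairing by slide moved the count by less than 1.5 times. They fell to 1402 (814 higher, 588 lower) when only probes detected on all 6 arrays were tested, because genes at the floor in 1 cell type were then not tested. The fit of 12 group means over 20 arrays, which takes d12 alone and has no block, gave 1795, while d12 with the block (without slide 3) gave 2382. Normexp background correction gave 1772 and the methods' variance analysis 1736. The day difference had 0 calls, and 70 with no filter on dim probes. The difference between steps had 1410 calls, 984 without the replicate block and 916 to 1148 when 1 slide was left out. The difference between tissues had 1179 calls, 246 without the replicate block and 365 to 1108 when 1 slide was left out. Its main majority of larger steps in pLN (652 and 527) also turned under 75th percentile scaling (553 and 590). The causes of these changes in the day, step and tissue counts were not tested.

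Of 146 named genes 132 were called, and 80 of these kept the call in every one of up to 23 alternatives in which they were tested. No called gene changed sign, while Gzmb, Elovl7 and Igf2bp2, not called, did so in some alternatives. List medians crossed 0 for integrins (−0.377 to 0.044, probes detected on all 6 arrays) and oxidative phosphorylation (0.112 to −0.0498, 75th percentile scaling), and for Treg identity, cholesterol and ribosome biogenesis genes near 0. Calls were lost for 17 named genes without slide 2, 20 without slide 3, 37 in the fit of group means, 41 in the methods' variance analysis and 9 without the block. In the fit of group means effector Treg genes called higher were 11 (19 in the model used), type 1 genes 3 (8) and interferon genes called lower 2 (7). With d12 alone and the block kept they were 13, 6 and 8, and without the block alone 16, 6 and 3. Signal below the detection limits of 20 to 144 is not resolved.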
